A study of Mus musculus with 11 samples.

Results

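Procr, Lgr4, Lgr5, Lgr6 and Tspan8 encode surface proteins used to mark stem-like cells of the mammary gland, and their transcripts were followed across both epithelial layers of mouse mammary outgrowths. Every probe whose RefSeq accession belonged to 1 of these genes was taken, which gave 5 probes, 1 for each gene and each spotted once, out of 20145 genes named on the array. The arrays measured RNA of primary mouse mammary epithelial cells that had been transduced in suspension with lentivirus and injected in Matrigel to grow as outgrowths. The virus carried a hairpin against Ror2 (shROR2), a receptor of non-canonical Wnt signalling, or a control hairpin named shLUC. Cells of the outgrowths were sorted on CD24 and CD29 into a basal and a luminal population. The groups were basal shROR2 (3 arrays), basal shLUC (3 arrays), luminal shROR2 (2 arrays) and luminal shLUC (3 arrays). The labels speak of biological triplicates, and 2 luminal shROR2 arrays are analysed here. All groups share transduction, growth as an outgrowth, the sort and whole-transcriptome amplification, and the labels used here give no strain, age or time after injection. The question of the study was what loss of Ror2 changes in each layer.

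LGR4, LGR5 and LGR6 are related receptors with leucine-rich repeats that bind R-spondins. An R-spondin held by an LGR draws the ubiquitin ligases ZNRF3 and RNF43 away from Frizzled receptors, which raises the sensitivity of a cell to Wnt ligands. Lgr5 marks cycling stem cells of the mouse intestine, and in the mammary gland Lgr5, Lgr6 and Procr have each been used to trace epithelial cells with progenitor activity. PROCR is the endothelial protein C receptor, a membrane protein that presents protein C for activation by thrombin bound to thrombomodulin, and endothelial cells express it strongly. TSPAN8 is a tetraspanin, a protein with 4 membrane spans that gathers partner proteins in the membrane, and it has been used with Lgr5 to divide basal mammary cells. In sorted bulk samples such as these, fewer cells that express a gene and less of its RNA per cell cannot be told apart.

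RefSeq promoter sequences were matched for 4 of the 5 genes and are shown so that the regions upstream of the compared genes can be read side by side. Each run is the 250 bases before the start of the gene on its own strand, 5′ to 3′, on build GRCm38.p6. Procr lies at chr2:155750967-155751216 on the plus strand, Lgr4 at chr2:109917397-109917646 on the plus strand, Lgr6 at chr1:135105277-135105526 on the minus strand and Tspan8 at chr10:115817034-115817283 on the plus strand. Capitals mark matches to the motifs searched on both strands.
Procr: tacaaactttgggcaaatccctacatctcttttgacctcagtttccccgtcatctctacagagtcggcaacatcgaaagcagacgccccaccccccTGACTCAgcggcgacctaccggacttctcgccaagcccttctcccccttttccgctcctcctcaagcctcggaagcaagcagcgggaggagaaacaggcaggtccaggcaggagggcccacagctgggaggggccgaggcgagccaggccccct
Lgr4: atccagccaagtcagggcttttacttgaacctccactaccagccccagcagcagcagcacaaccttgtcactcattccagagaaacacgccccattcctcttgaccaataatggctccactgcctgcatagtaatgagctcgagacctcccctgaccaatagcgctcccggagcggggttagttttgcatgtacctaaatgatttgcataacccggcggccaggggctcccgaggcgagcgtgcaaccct
Lgr6: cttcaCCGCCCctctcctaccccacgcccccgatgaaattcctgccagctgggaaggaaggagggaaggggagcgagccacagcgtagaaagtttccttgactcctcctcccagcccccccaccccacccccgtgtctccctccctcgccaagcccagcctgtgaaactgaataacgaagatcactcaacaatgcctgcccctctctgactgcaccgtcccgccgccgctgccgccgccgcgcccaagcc
Tspan8: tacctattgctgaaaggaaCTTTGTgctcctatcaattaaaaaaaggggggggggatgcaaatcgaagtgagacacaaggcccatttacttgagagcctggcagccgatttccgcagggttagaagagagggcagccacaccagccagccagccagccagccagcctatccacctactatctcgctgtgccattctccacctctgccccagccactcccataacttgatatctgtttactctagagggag
The letters searched were TGACTCA, the site of AP-1 factors, and CTTTGT, a core of sites for TCF and LEF factors, with its variant form CTTTGA. Searched as well were CACCTG, the E-box of the Snail and Zeb families, then GGGCGG, the GC box of Sp factors, and finally TATAAA, the TATA box. No matches overlapped. The Procr window held TGACTCA 154 bases before the start, a motif found in 4.46% of 32851 mouse promoter windows of the same length. The Tspan8 window held CTTTGT 231 bases before the start, found in 16.5% of windows. The Lgr6 window held the GC box on its opposite strand 245 bases before the start, found in 32.7% of windows, and the Lgr4 window held no match. The variant TCF core occurred in 13.8% of all windows, the E-box in 17.2% and the TATA box in 12.4%, and none of them in the 4 windows printed. The content of G and C was 61.6% for Procr, 55.6% for Lgr4, 65.2% for Lgr6 and 52.4% for Tspan8, beside a median of 52.4% over all windows. A match is a description of the letters and not a shown binding site.

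On each array 52.8% to 59.5% of probes exceeded background clearly and no spot was saturated. The correlation between replicate arrays was 0.941 to 0.953 in basal shROR2, 0.976 to 0.982 in basal shLUC, 0.983 in luminal shROR2 and 0.981 to 0.983 in luminal shLUC, so the basal shROR2 arrays were the least alike. The sort labels held for the layer markers. Of 13 tested myoepithelial genes 12 were higher in basal than in luminal cells, and 19 of 20 luminal genes were lower, within shLUC. The myoepithelial exception was Trp63, with a difference of 0.15 (adjusted p = 0.278, limma). The arrays lay on 2 slides that each held 1 or 2 arrays of every group. The single Ror2 probe was near background, with signals of 3.03 to 16.8 in basal shROR2, 10.1 to 12.1 in basal shLUC, 3.54 to 8.47 in luminal shROR2 and 3.14 to 3.48 in luminal shLUC. It was well above background on 1 of 3 basal shROR2 arrays and on none of the other 8, so these values do not show whether the hairpin lowered Ror2.

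**Figure D1:**
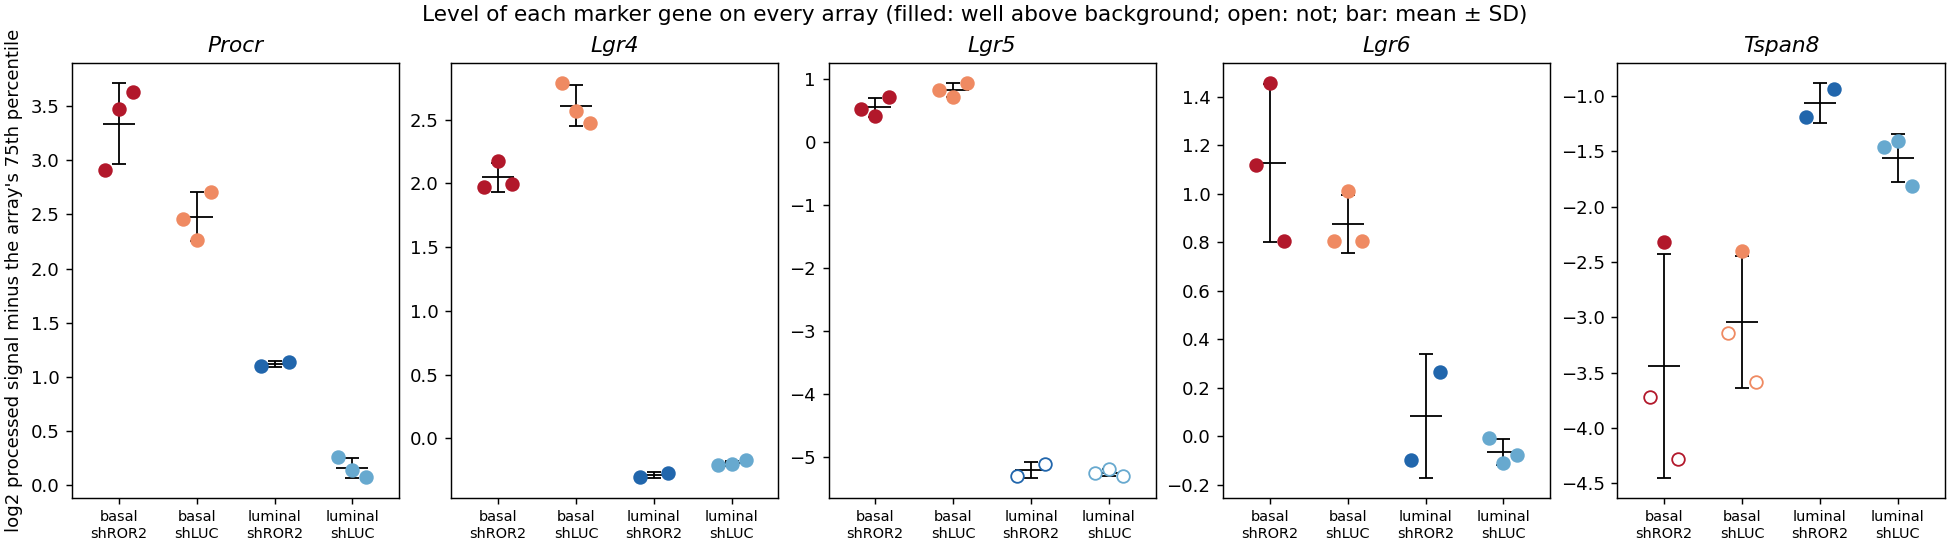
Scaled level of each of the 5 genes on each array (vertical axis, log2 of processed signal relative to the 75th percentile of the array), in the order basal shROR2, basal shLUC, luminal shROR2 and luminal shLUC. Filled points lie well above background, open points do not, and bars give the mean ± SD. Lgr5 is filled on every basal array and open on every luminal array, and Tspan8 is the gene whose luminal points lie above its basal points.

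The levels of 4 of the genes were higher in basal than in luminal cells and that of Tspan8 was lower, in outgrowths of either hairpin. All 5 passed the test in both comparisons (limma, adjusted p under 0.05). Such a call was common, since 26.9% of all 29430 features passed within shLUC (13.8% higher and 13.0% lower) and 22.9% within shROR2 (10.6% higher and 12.3% lower). Lgr5 was at background in luminal cells, and Tspan8 was near background in basal cells.

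Lgr5, the receptor that marks intestinal stem cells, was seen in the basal layer alone. Its processed signal was 164, 154 and 184 on the basal shROR2 arrays and 205, 217 and 221 on the basal shLUC arrays. On the luminal arrays it was 3.07 and 3.31 in shROR2 and 2.94, 3.16 and 2.97 in shLUC, and none of these 5 values was well above background. Because the luminal level is only bounded, a fold is given as the basal mean over the lowest signal that counted as well above background on each luminal array. In this processing Lgr5 was at least 12.7-fold higher in basal than in luminal cells within shROR2 and at least 15.5-fold higher within shLUC. The fitted differences, which take the luminal background values as they are, had adjusted p of 3.73e-08 and 5.4e-09 (limma) in the same order. Those p-values do not test the bounds, and the probe passed the filter through its basal arrays alone.

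Lgr4, the most widely expressed R-spondin receptor of mammals, was present in both layers. Its signals were 446, 522 and 448 in basal shROR2 and 801, 778 and 638 in basal shLUC. The luminal signals were 98.2 and 95.7 in shROR2 and 97.8, 100.6 and 104 in shLUC. Every basal array thus lay far above every luminal array. The basal minus luminal difference was 2.33 ± 0.13 in shROR2 (log2 of scaled signal, SE, a 5.04-fold difference, adjusted p = 3.94e-06, limma) and 2.80 ± 0.12 in shLUC (6.98-fold, 95% interval 5.83 to 8.37, adjusted p = 3.73e-07). On slide 1 and slide 2 it was 2.29 and 2.45 in shROR2, and 2.84 and 2.75 in shLUC. A fit that blocked on the slide gave 2.34 in shROR2 and 2.82 in shLUC.

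Lgr6, the R-spondin receptor first known as a marker of mouse hair follicle stem cells, had the smallest layer difference of the 3 receptors. Its signals were 248, 317 and 196 in basal shROR2 and 202, 265 and 201 in basal shLUC. They were 113 and 138 in luminal shROR2 and 112, 107 and 111 in luminal shLUC, below all basal values. The basal minus luminal difference was 1.04 ± 0.20 in shROR2 (2.06-fold, adjusted p = 0.00496, limma) and 0.94 ± 0.18 in shLUC (1.92-fold, 95% interval 1.45 to 2.53, adjusted p = 0.00408). It was 1.06 on slide 1 and 1.19 on slide 2 in shROR2, and 0.81 and 1.105 in shLUC. The blocked fit gave 1.08 and 1.02. The call within shROR2 was lost when only these groups were fitted (adjusted p = 0.0881) or without luminal shROR2 replicate 1 (adjusted p = 0.0574).

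Procr, the protein C receptor, was well above background on all 11 arrays and separated all 4 groups. Its signals were 859, 1277 and 1390.1 in basal shROR2, 637, 630.0 and 752 in basal shLUC, 260.2 and 254 in luminal shROR2, and 135, 128 and 124 in luminal shLUC. No group overlapped another in scaled level, which was also so for Lgr4, and the share of all features with 4 separate groups was not computed. For each of the 5 genes basal and luminal arrays did not overlap in either hairpin, which was so for 45.6% of all features within shROR2 and 52.2% within shLUC. The scaled log2 levels averaged 3.34 ± 0.38 in basal shROR2, 2.48 ± 0.22 in basal shLUC, 1.12 ± 0.03 in luminal shROR2 and 0.16 ± 0.09 in luminal shLUC (SD, n = 2 in luminal shROR2 and n = 3 in each other group). The basal minus luminal difference was 2.22 ± 0.22 in shROR2 (4.65-fold, adjusted p = 0.000119, limma) and 2.32 ± 0.19 in shLUC (4.98-fold, 95% interval 3.67 to 6.75, adjusted p = 3.16e-05). It held on either slide, with 2.17 and 2.33 in shROR2 and 2.32 and 2.15 in shLUC. Blocked on the slide it was 2.20 in shROR2 and 2.29 in shLUC.

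Tspan8, the tetraspanin, ran the other way and was dim. Its signals were 8.66, 23.1 and 5.77 in basal shROR2 and 13.2, 24.8 and 9.58 in basal shLUC. They were 53.1 and 60.3 in luminal shROR2 and 40.9, 43.6 and 33.5 in luminal shLUC. All 5 luminal arrays were well above background, while among basal arrays only replicate 2 of either hairpin was, and both of these lay on slide 2. With 2 of the 3 basal arrays of either hairpin not well above background, the sizes below rest partly on signals at the background limit. The basal minus luminal difference was -2.38 ± 0.53 in shROR2 (95% interval -3.58 to -1.18, adjusted p = 0.0116, limma) and -1.48 ± 0.47 in shLUC (95% interval -2.56 to -0.41, adjusted p = 0.0472).

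Within slides, which hold 1 or 2 arrays of a group, the Tspan8 difference was -2.81 on slide 1 and -1.38 on slide 2 within shROR2, and -1.90 and -0.80 within shLUC. In the blocked fit it was -2.26 (adjusted p = 0.00757, limma) within shROR2 and -1.24 (adjusted p = 0.0529) within shLUC. The shLUC call was lost in 8 of the 11 fits that each left out 1 array (adjusted p between 0.00732 and 0.149). The spread of Tspan8 within groups was the largest of the 5 genes, with a pooled SD of 0.64, at the 84.2nd percentile of all features, beside 0.11 for Lgr4 and Lgr5, 0.21 for Lgr6 and 0.24 for Procr.

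The sizes of the layer differences, though none of their directions or calls, were smaller in the authors' normalized values and with normexp background correction, which adds an offset. Lgr5 differed by 1.94 and 2.02 (log2) within shROR2 and by 2.01 and 2.11 within shLUC in these 2 settings, well under the bounds above. Lgr4 differed by 1.68 and 1.78 within shROR2 and by 2.09 and 2.24 within shLUC. Tspan8 differed by -0.61 and -0.64 within shROR2 and by -0.40 and -0.45 within shLUC. The order of the genes by size of difference thus also moved with the processing.

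**Figure D2:**
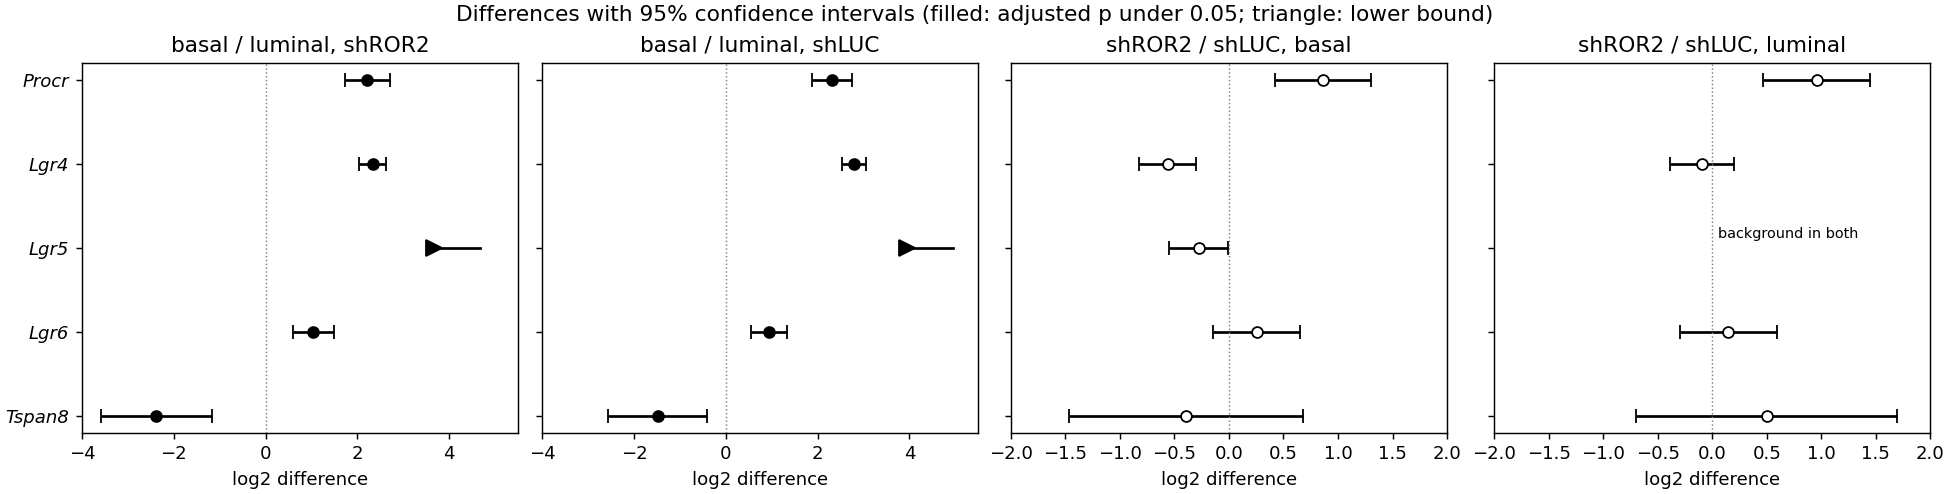
Log2 differences of the 5 genes with their 95% intervals from limma (horizontal axis), in panels for basal against luminal within shROR2 and within shLUC, and for shROR2 against shLUC within basal and within luminal cells. Filled symbols passed an adjusted p of 0.05, and the triangle marks the lower bound of Lgr5. All 5 genes are filled in both layer panels and none in either hairpin panel, where Lgr5 is left out of luminal cells.

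With the Ror2 hairpin, none of the 5 genes passed the test in basal cells, where 0.948% of all features did (0.374% higher and 0.574% lower, limma). At an unadjusted p under 0.05, 3 of the 5 did (Procr, Lgr4 and Lgr5), as did 4644 of all 29430 features. The values leaned in different directions. Procr differed by 0.86 ± 0.19 between basal shROR2 and basal shLUC (log2, SE, higher on all shROR2 arrays, 1.82-fold, 95% interval 1.34 to 2.46, limma, adjusted p = 0.084). The scaled level of Lgr4 averaged 2.05 ± 0.11 in basal shROR2 and 2.61 ± 0.16 in basal shLUC (SD, n = 3 each), a difference of -0.56 ± 0.12 (SE, 0.677-fold, 95% interval 0.565 to 0.812, limma, adjusted p = 0.0678). Lgr5 averaged 0.55 ± 0.15 in basal shROR2 and 0.83 ± 0.11 in basal shLUC, a difference of -0.28 ± 0.12 (adjusted p = 0.303). For these 3 genes the arrays of the hairpins did not overlap, as was so for 18.5% of all features.

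The basal differences of Procr and Lgr4 sat near the threshold and crossed it with the processing. With normexp background correction the adjusted p was 0.0228 for Procr and 0.021 for Lgr4 (limma). In the authors' normalized values it was 0.0152 and 0.0274, and with an intensity trend it was 0.0312 and 0.0387. Leaving out basal shROR2 replicate 1 brought Procr to a difference of 1.07 (adjusted p = 0.0175), and leaving out basal shROR2 replicate 2 brought Lgr4 to -0.63 (adjusted p = 0.0492). On slide 1 and slide 2 the Procr difference was 0.69 and 1.21 and the Lgr4 difference was -0.65 and -0.39. In the fit blocked on the slide these were 0.86 (adjusted p = 0.115) and -0.56 (adjusted p = 0.0945). Each gene was called in 3 of 12 alternative fits, where the highest adjusted p was 0.353 for Procr and 0.342 for Lgr4 (limma). With only the groups compared, no feature at all was called in basal cells.

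Lgr6 and Tspan8 overlapped between the hairpins in basal cells. Lgr6 averaged 1.13 ± 0.33 in basal shROR2 and 0.87 ± 0.12 in basal shLUC, a difference of 0.25 ± 0.18 (adjusted p = 0.527, limma). Tspan8 averaged -3.44 ± 1.01 in basal shROR2 and -3.04 ± 0.60 in basal shLUC, a difference of -0.40 ± 0.47 (adjusted p = 0.735), and 4 of the 6 basal signals were not well above background.

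In luminal cells the hairpin comparison rested on 2 shROR2 and 3 shLUC arrays, and none of the 5 genes passed (limma). A single feature of 29430 did, or 0.0034%, against 1633 at an unadjusted p under 0.05. Procr was the only one of the 5 at an unadjusted p under 0.05, with a difference of 0.96 ± 0.22 (1.95-fold, 95% interval 1.38 to 2.73, limma, adjusted p = 0.353). It was 0.84 on slide 1, 1.03 on slide 2 and 0.95 in the fit blocked on the slide. The luminal shROR2 arrays had 260.2 and 254, above the 124 to 135 of luminal shLUC. The arrays of Procr, Lgr4 and Tspan8 did not overlap between the hairpins, as was so for 29.0% of all features in this comparison.

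None of the other genes passed the test in luminal cells. Lgr4 averaged -0.29 ± 0.03 in luminal shROR2 and -0.19 ± 0.02 in luminal shLUC, and the 95% interval of the difference ran from -0.38 to 0.20. Lgr6 averaged 0.08 ± 0.26 in luminal shROR2 and -0.07 ± 0.05 in luminal shLUC, with an interval of -0.30 to 0.59. Tspan8 averaged -1.06 ± 0.18 in luminal shROR2 and -1.56 ± 0.22 in luminal shLUC, a difference of 0.50 ± 0.53 with an interval of -0.70 to 1.70. Lgr5 was at background in both groups, so no difference is given.

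Whether the hairpin difference itself differed between layers was tested as an interaction, and no member and no other feature passed (0.0% of 29430, limma), with 2443 features and 1 of the 5 genes at an unadjusted p under 0.05. That gene was Lgr4, with a basal minus luminal hairpin difference of -0.47 ± 0.17 (95% interval -0.86 to -0.08, limma, adjusted p = 0.534). For Procr it was -0.10 ± 0.29 (95% interval -0.76 to 0.56, adjusted p = 0.956), so differences of up to about that size in either direction were not resolved. It was 0.11 ± 0.26 for Lgr6 (adjusted p = 0.946) and -0.90 ± 0.71 for Tspan8 (adjusted p = 0.796). With the mean of the hairpin differences of both layers, a comparison added after the values were seen, Procr was called higher in shROR2 by 0.91 ± 0.15 (1.88-fold, 95% interval 1.50 to 2.36, adjusted p = 0.0444). It was the only one of the 5 genes called, beside 0.445% of all features (0.272% higher and 0.173% lower). The call was lost under median scaling, with no filter, with a slide block (adjusted p = 0.0782), with a replicate block and in 10 of 11 fits that left out 1 array.

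**Figure D3:**
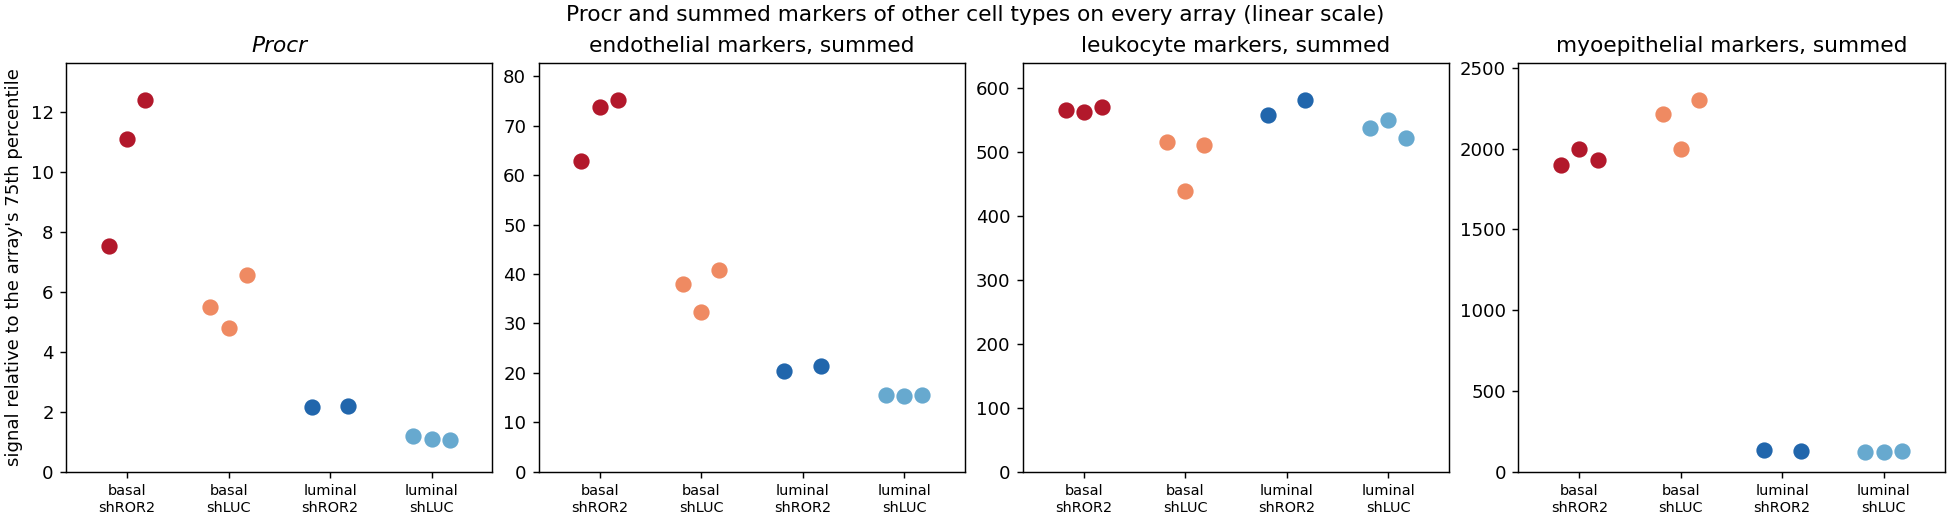
Procr signal and summed signals of endothelial, leukocyte and myoepithelial marker lists on each array (vertical axes, linear signal relative to the 75th percentile of the array), in the order basal shROR2, basal shLUC, luminal shROR2 and luminal shLUC. Each point is 1 array, and every vertical axis starts at 0. Most of each leukocyte sum is the signal of Itgam, and most of each myoepithelial sum in luminal cells is that of Trp63. The endothelial sums keep the same order of groups as Procr, from 62.9 to 75.2 in basal shROR2 down to 15.3 to 15.6 in luminal shLUC. In luminal cells a large part of each endothelial sum is the signal of Kdr.

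Markers of endothelial cells, which express Procr, moved with the same groups. The summed scaled signal of 20 endothelial genes was 62.9 to 75.2 in basal shROR2, 32.3 to 40.9 in basal shLUC, 20.3 to 21.5 in luminal shROR2 and 15.3 to 15.6 in luminal shLUC. A large part of the luminal sums was Kdr, which differed little between the groups. It averaged 3.48, 3.32, 3.07 and 3.09 (scaled log2) in the same order. Of the 20 genes, 19 were well above background on each basal shROR2 array, 18 on each basal shLUC array, 13 on each luminal shROR2 array and 9 to 14 on luminal shLUC arrays. Pecam1 and Cdh5, which define endothelial cells, were above background on every array. Tek, Tie1, Erg, Flt1, Sox17, Mmrn1 and Lyve1 were not above background on either luminal shROR2 array. Robo4, Erg, Sox17, Mmrn1 and Lyve1 were not on any luminal shLUC array, Lyve1 was not on any basal shROR2 array, and Mmrn1 and Lyve1 were not on any basal shLUC array.

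Gene by gene, all 19 tested endothelial markers had a positive difference between basal shROR2 and basal shLUC, with a median of 0.93, and 4 passed the test (Mmrn1, Erg, Plvap and Emcn). In luminal cells 15 of 19 were positive, with a median of 0.80 and none called. Between basal and luminal shLUC cells 14 of 19 were called higher, with a median of 2.15. Leukocyte genes summed to 563 to 569 in basal shROR2, 439 to 516 in basal shLUC, 557 to 580.4 in luminal shROR2 and 522 to 549.6 in luminal shLUC. Most of each leukocyte sum was the signal of Itgam, which averaged 8.71 to 8.83 (scaled log2) in the 4 groups. These sums thus do not follow the other leukocyte genes. Of 17 tested, 8 were called higher in basal shROR2 than in basal shLUC, with a median of 1.06. Between the hairpins in luminal cells none was called and the median was 0.58. Adipocyte sums were 45.4 to 55.8 in basal shROR2, 23.4 to 26.2 in basal shLUC, 11.7 to 13.5 in luminal shROR2 and 6.04 to 7.59 in luminal shLUC. Most of each adipocyte sum was the signal of Fabp4, which averaged 5.56 in basal shROR2 and 4.55 in basal shLUC (scaled log2). Adipoq, Lep and Cfd were not above background on any basal shROR2 array, and Lep and Car3 not on any basal shLUC array. None of these 4 was above background on a luminal array. Fibroblast sums were 69.1 to 85.3, 74.3 to 82.5, 12.1 to 12.7 and 7.24 to 7.65 in the same order of groups. Those of 9 pericyte genes were 937 to 1066, 851 to 1045, 944 to 962 and 959 to 1091, nearly all of it the signal of Mcam, so the sums do not follow the other genes of that list. Of 8 tested pericyte genes 1 was called higher in basal shROR2 than in basal shLUC, Des, by 1.53 ± 0.26 (adjusted p = 0.0382, limma), and the list median was 0.38. Rgs5 had 0.63 ± 0.20 (adjusted p = 0.182) in basal cells and 1.05 ± 0.23 (adjusted p = 0.33) in luminal cells, where no pericyte gene was called and the median was 0.20. The part of these other cell types in the Procr differences was not tested.

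The sums of the layer markers differed less between the hairpins than between the layers. Myoepithelial sums were 1897 to 1995 in basal shROR2 and 1995 to 2299 in basal shLUC, with 125 to 132 in luminal shROR2 and 119 to 126 in luminal shLUC. In luminal cells most of the myoepithelial sum was the signal of Trp63, so it does not follow the other genes of that list. Of 13 tested, 10 had a positive difference between luminal shROR2 and luminal shLUC, with a median of 0.14 and none called. Nearest the threshold was Myl9, with 1.28 ± 0.14 (adjusted p = 0.0519, limma). Luminal sums were 92.5 to 116 in basal shROR2 and 76.9 to 80.1 in basal shLUC, with 667 to 709 in luminal shROR2 and 601 to 628 in luminal shLUC. Gene by gene in basal cells, 2 of 13 tested myoepithelial genes had a positive difference with the hairpin (median -0.14, none called). Of 20 luminal genes 14 had a positive one (median 0.41), and 1 was called higher, Ly6d (adjusted p = 0.0479, limma). Both sums in basal cells are given because Lgr4 and Lgr5 had lower values, and Procr higher ones, in basal shROR2. Their part in those differences was not tested.

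**Figure D4:**
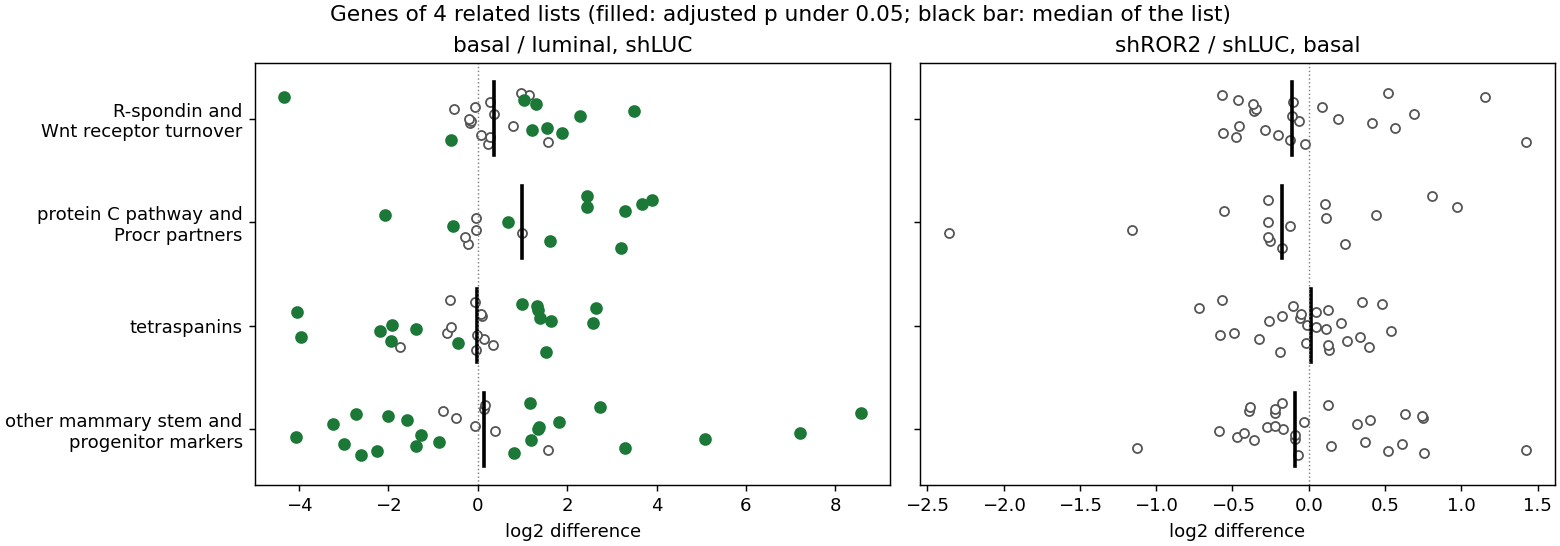
Log2 differences of the genes of 4 related lists (points, horizontal axis, 1 row for each list), for basal against luminal cells within shLUC and for shROR2 against shLUC within basal cells. Filled points passed an adjusted p of 0.05 and black bars mark list medians. Genes at background in 1 group stand at their fitted value. The layer comparison has filled points in both directions in each list, and the hairpin comparison has none.

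Genes that work with the 5 markers were described by list. Folds given as at least a value hold in this processing and were not computed in the other settings, as genes at background are compressed by an offset. Of 23 tested genes of R-spondin signalling and Wnt receptor turnover, 7 were higher and 2 lower in basal than in luminal shLUC cells (median 0.36, beside -0.06 for all features), and the counts within shROR2 were again 7 and 2 (median 0.61). The Wnt receptors Fzd1 and Fzd7 were higher in basal cells, by 1.45 and 2.33 within shROR2 and by 1.88 ± 0.12 (adjusted p = 5.68e-06, limma) and 2.28 ± 0.20 (adjusted p = 4.56e-05) within shLUC. Fzd9 was at least 2.44-fold higher within shROR2 and at least 3.16-fold higher within shLUC. Rspo1, a ligand of the LGR receptors, was lower in basal cells, by -2.86 ± 0.41 within shROR2 (adjusted p = 0.00109) and by -4.33 ± 0.36 within shLUC (adjusted p = 3.17e-05). The ligand and the receptors Lgr4, Lgr5 and Lgr6 thus differed between the layers in opposite directions.

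Of 15 tested genes of the protein C pathway, 8 were higher and 2 lower in basal shLUC cells (median 0.98), and 7 were higher and 2 lower within shROR2 (median 0.41). Thbd, the thrombomodulin that works with PROCR, was higher by 2.39 within shROR2 (adjusted p = 6.44e-05) and by 2.44 ± 0.19 within shLUC (adjusted p = 1.95e-05, limma). Pros1, the cofactor protein S, was higher by 2.53 within shROR2 and 3.30 ± 0.14 within shLUC, and Cav1, a caveolin of the membrane domains where PROCR resides, by 2.59 and 3.20 ± 0.12. Proc, which encodes protein C, the ligand of PROCR, was lower in basal cells, by -1.86 within shROR2 (adjusted p = 0.00405) and by -2.08 within shLUC (adjusted p = 0.00100), and was named after its values were seen. The inhibitor Tfpi2 was at least 3.03-fold and 3.66-fold higher within shROR2 and shLUC.

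Tetraspanins were divided between the layers, with 8 called higher and 7 called lower in basal cells of 26 tested, in either hairpin (medians -0.11 in shROR2 and -0.02 in shLUC). Called or not, 10 of the 26 had a positive difference within shROR2 and 12 within shLUC. Tspan8 thus shared its direction with the 7 called lower. Tspan13 was lower by -1.75 within shROR2 and by -2.18 ± 0.15 within shLUC, Tspan1 by -3.68 and -3.96 ± 0.39, and Tspan33 by -4.23 and -4.04. Tspan5 was higher by 1.89 within shROR2 and 2.64 ± 0.17 within shLUC, Tspan18 by 3.17 and 2.58, and Tspan3 by 1.38 ± 0.12 within shLUC.

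Among 29 tested markers used for other mammary stem and progenitor cells, 12 were higher and 12 lower in basal cells within shROR2 (median -0.05), and 11 and 11 within shLUC (median 0.15). The inhibitor of differentiation Id4 was at least 25.0-fold higher within shROR2 and at least 33.7-fold higher within shLUC. The transcription factor Snai2 was higher by 6.94 ± 0.15 within shROR2 and at least 189-fold higher within shLUC, and the Notch ligand Dll1 was at least 23.5-fold and 23.9-fold higher. Cd14, a surface marker of luminal progenitors, was lower by -2.12 within shROR2 and by -3.00 ± 0.14 within shLUC (adjusted p = 9.45e-07).

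With the hairpin no gene of the 4 lists was called in basal or in luminal cells (limma). The list medians in basal cells were -0.11 for R-spondin and Wnt receptors, -0.18 for the protein C pathway, 0.02 for tetraspanins and -0.09 for the stem and progenitor markers, beside -0.05 for all features. In luminal cells they were -0.14, 0.00, 0.07 and -0.01 in the same order, beside 0.00. The partner Thbd had values like those of Procr, with 0.81 ± 0.19 in basal cells (adjusted p = 0.0913) and 0.86 ± 0.21 in luminal cells (adjusted p = 0.422). The list gene nearest the threshold was Snai2 in luminal cells. It was above background on both luminal shROR2 arrays and on none of the luminal shLUC arrays, and was at least 1.32-fold higher in luminal shROR2. The adjusted p of 0.0519 (limma) belongs to its fitted difference and not to that bound. Dvl2 had -0.42 ± 0.22, Lrp6 0.34 ± 0.22, Cav1 0.44 ± 0.13, Tspan3 0.30 ± 0.13, Cd81 0.25 ± 0.12 and Aldh1a1 -0.66 ± 0.22 in luminal cells, with adjusted p of 0.643 or more. Fzd1 had -0.56 ± 0.12 (adjusted p = 0.0744) and Rspo1 1.15 ± 0.36 (adjusted p = 0.178) in basal cells. Pros1 had -0.56 ± 0.14, Tspan5 -0.72 ± 0.17, Tspan13 0.54 ± 0.15, Cd14 0.61 ± 0.14 and Id4 -0.42 ± 0.10 there, with adjusted p between 0.0895 and 0.133. No list gene passed the test of the hairpin difference between the layers. The smallest adjusted p there was 0.0937 for Snai2, whose luminal shLUC level was at background, and next came Aldh1a1 with 1.42 ± 0.30 (adjusted p = 0.267). Pros1 had -0.77 ± 0.20, Cav1 -0.61 ± 0.18, Tspan5 -0.75 ± 0.25, Tspan3 -0.35 ± 0.18, Rspo1 1.48 ± 0.54 and Fzd8 1.06 ± 0.42, with adjusted p from 0.386 to 0.65.

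The genes whose scaled level followed each marker most closely over the 11 arrays were listed by Pearson's r, which the difference between the layers dominates. For Procr these were Il6, Mustn1, Ackr1, Akap12 and Lpp (r of 0.994 to 0.99), and for Lgr4 Ugdh, Hmcn1, Apol10b, Pdlim3 and Lgals1 (0.998 to 0.996). For Lgr5 they were Wif1, Id4, Krt5, Ereg and Crispld2 (0.999 each). For Lgr6 they were Fam180a, Tenm3, Gstm2, Prrc2a and Plac9a (0.982 to 0.975), and for Tspan8 Lurap1l, Galnt15, Scnn1b, Slc26a11 and Arg2 (0.975 to 0.96). Between the markers themselves r was 0.988 for Lgr4 with Lgr5, 0.864 for Procr with Lgr4, 0.918 for Procr with Lgr5 and 0.914 for Procr with Lgr6. It was 0.893 for Lgr4 with Lgr6 and 0.918 for Lgr5 with Lgr6, and ran from -0.863 to -0.681 for Tspan8 with the other 4.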

How the data were processed

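RNA of sorted cells was amplified from biological triplicates, labelled with Cy3 and hybridised to 1-colour Agilent mouse arrays, per the labels' protocols. Processed and median signals are intensity values in the deposited scanner files, made with Agilent Feature Extraction (version 11.0.1.1, design build mm9), per the file headers, with background subtraction and detrending inside an array and no normalization between arrays. The authors' table of normalized intensity values was used as an alternative. Its column medians were 88.8 to 89.3, and it correlated at 0.996 to 0.998 with the median signal of each array. Its values lie on a linear scale that is not centred, and how the authors normalized it was not given in the sources used here.

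Probes were named by RefSeq accession through a GRCm38.p6 gene table, which named 26582 of 55681 probes and left 29099 without a name. Spots of a probe were averaged, and the values tested were log2 ratios of processed signal to the 75th percentile on its array (112 to 131). The lowest signal well above background was 10.8 to 14.0 on each array, and 110 to 163 outlier spots per array were left out. Probes well above background on at least 3 of 11 arrays (33630) were kept, and the probe with the highest mean stood for each gene, which left 29430 features. All 5 genes described passed this filter, so no gene needed a separate permutation test. The 4 group means were estimated jointly by limma (version 3.58.1, functions lmFit and eBayes, R 4.3.3), p-values were 2-sided, and Benjamini-Hochberg adjustment ran over all features of a comparison. The p-values set each difference against the spread between these samples, estimated jointly over all 4 groups. The scripts were tested on simulated data. Plots were made with Python 3.11.15 and matplotlib 3.10.9.

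Alternatives were another scaling, background correction, filter, probe choice, set of arrays or block, and each array left out in turn. The genes, the 4 pathway lists and the 7 marker lists were chosen with earlier results of these data known. From each list, up to 4 called genes with the smallest p are named for each planned comparison, or the 2 with the smallest p where none was called. Some of these genes are also given for the other comparisons. For likeness the 5 genes with the highest r were taken. The number of arrays limits the precision.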

Additional observations from a re-analysis of the deposited data

How the results depend on the processing

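The layer calls held best. Basal against luminal within shLUC had 4 or 5 of the 5 genes called under every alternative run, with 6759 to 11342 features called (5829 to 9542 when 1 array was left out), and within shROR2 the number was 5 except for 3 with only the groups compared, and 3 to 5 when 1 array was left out. The exceptions were Lgr6 within shROR2, as given above, and Tspan8, whose call was also lost within shLUC with no filter (adjusted p = 0.0787) and within shROR2 with only the groups compared (adjusted p = 0.09) or without luminal shROR2 replicate 1 (0.0584) or 2 (0.079). In the basal hairpin comparison the number called was 2 with normexp, 2 in the authors' table and 2 with an intensity trend, and 0 to 1 when 1 array was left out. For the average over the layers it was 0 with median scaling, no filter, the slide block and the replicate block, and 0 to 1 when 1 array was left out (adjusted p of Procr 0.0178 to 0.169). The interaction of Procr changed sign to 0.060 with normexp and 0.15 in the authors' table and ran from -0.25 to 0.11 when 1 array was left out, and that of Lgr6 from -0.075 to 0.29. When 1 array was left out, the luminal hairpin difference of Lgr6 ran from -0.032 to 0.33, and the basal one of Tspan8 from -0.96 to 0.024. The cause of these changes was not tested.

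Features called in basal cells with the hairpin numbered 279, and 0 to 677 over the alternatives or 21 to 877 when 1 array was left out. Luminal counts were 1, 0 to 57 and 0 to 10, and counts for the average were 131, 0 to 301 and 0 to 299. For the interaction they were 0, 0 to 23 and 0 to 8. Samples that share a number deviated together in none of 15 pairs (correlations of -0.04 to 0.04), so no pairing by number was seen. With so few arrays in a group this check cannot exclude a pairing. With a replicate block, 37 features were called in basal cells, and Procr and Lgr4 each had an adjusted p of 0.137. Normexp was run on the median signal, chosen after seeing the data, because the files used here hold no mean signal, so the planned version was not run.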
